A study of Mus musculus with 12 samples.

Results

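Cumulus cells of 3-month-old mice without ClpP were compared directly with cumulus cells of 6-month-old wild-type mice, the comparison that asks whether early loss of ClpP gives the transcript levels seen in older wild-type animals. The members were chosen by label alone: the 3 knockout (ClpP-/-) libraries of 3 months and the 3 wild-type (WT) libraries of 6 months, which are 6 of the 12 libraries of the series and have no library in common. All mice were C57BL/6J females given PMSG (5 IU), the gonadotropin of pregnant mares, which makes ovarian follicles grow. The protocol field puts collection at 44 h after the injection, and the design text of the series at 48 h. The knockout allele is not described in the labels, which also give every sample a passage, P1, that they do not explain. Each library was made by Smart-Seq2 and Nextera XT from 100 cumulus cells of a mouse, and 3-month WT and 6-month knockout libraries, 3 of each, complete the series. Genotype and age both differ between the groups compared and cannot be told apart here. In bulk RNA, fewer cells of a type and less RNA per cell cannot be told apart either.

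ClpP is the peptidase of the mitochondrial matrix. It works with the unfoldase ClpX to degrade damaged or unneeded proteins of that compartment, and its loss is known to raise mitochondrial chaperones and to disturb the assembly of the mitochondrial ribosome in several tissues. Cumulus cells are the granulosa cells that surround the oocyte. They feed it through gap junctions, answer to its growth factors of the bone morphogenetic protein (BMP) family, and spread in a hyaluronan matrix before ovulation.

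The knockout of 3 months fell below the older wild type in 2 genes, of which Clpp itself is described here, and rose above it in none. The unit was FPKM, fragments scaled to transcript length and to the fragments mapped in the library. Of 23997 genes in the table, 10300 had at least 1 FPKM in at least 3 of the 6 libraries and were tested with limma on log2(FPKM + 1), with Benjamini-Hochberg adjustment over all of them and a threshold of 0.05. A log2 difference on this scale understates the change of low genes. The 2 genes called lower were 0.0194% of those tested, and the genes called higher were 0%. Before adjustment, limma gave a p under 0.05 for 590 genes that were higher in the knockout (5.73%) and for 609 that were lower (5.91%), 11.6% in all. Every knockout value was above every wild-type value for 1041 genes (10.1%) and below for 1020 (9.9%), together 20% of the genes tested. The difference was above 0 for 51.7% of genes, with a median of 0.03.

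The 3 libraries a group left wide intervals around most genes. The 95% interval of the difference had a median half-width of 0.87 on the log2 scale. It lay within -1 and 1 for 2379 genes (23.1%), for which a 2-fold change of FPKM + 1 was outside the interval, and wholly beyond 1 of these bounds for 15 genes (0.146%). For low genes a 2-fold change of FPKM itself is smaller than 1 on this scale and can lie inside such an interval. The estimate itself was 1 or more in size for 871 genes (8.46%). A gene that missed the threshold was therefore not shown to be equal in the groups.

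Clpp, at chr17:56990305-56996188 in GRCm38, checked the labels. Its transcript read 6.63, 1.10 and 2.07 FPKM in knockout libraries 1, 2 and 3 and 129, 124 and 114 FPKM in the wild-type libraries, that is 3.27 ± 2.95 against 122 ± 7.59 (SD, n = 3 each). All knockout values lay far below all wild-type values, and the knockout mean was 2.67% of the wild-type mean. The log2 difference was -5.07 with a standard error of 0.54 and a 95% interval of -6.24 to -3.90 (limma, adjusted p = 0.00345). A 2-sided exact permutation test over the 20 splits of 6 libraries gave p = 0.1, the smallest p that 3 against 3 can give. Wild-type libraries of 3 months read 88.2, 130.0 and 146 FPKM, which overlapped the older wild type.

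**Figure D1:**
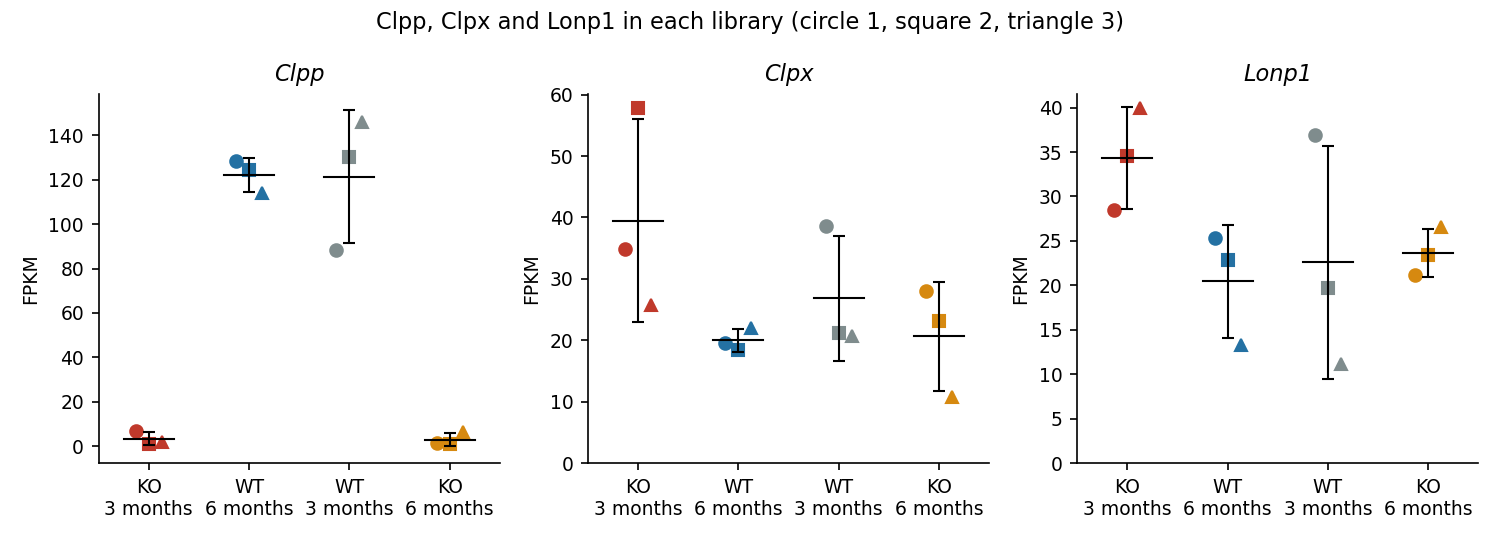
FPKM (linear axes, each from about 0) of Clpp, its unfoldase partner Clpx and the matrix protease Lonp1 in the 4 groups of 3 libraries, with a symbol per library number, a bar at the mean and the SD as error bar. Clpp is low in both knockout groups, and the 3 young knockout libraries lie above the 3 older wild-type libraries for Clpx and Lonp1.

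The libraries had the transcripts of cumulus cells, with differing amounts of other cells' markers. All 14 granulosa and cumulus markers were above 0 in each of the 6 libraries, and their summed FPKM ran from 3918 to 9689 in the knockout and from 5255 to 6657 in the wild type. Library 3 of each group stood apart. Summed theca and stromal markers were 157, 5.93 and 2236 FPKM in the knockout and 56.3, 26.7 and 379 FPKM in the wild type. Blood and leukocyte markers summed to 59.3, 11.1 and 932 FPKM against 114, 59.0 and 1834 FPKM, and luteal markers to 1184, 143 and 9452 FPKM against 885, 316 and 4732 FPKM. Oocyte markers summed to 6.88, 6.23 and 74.3 FPKM against 6.63, 4.31 and 18.4 FPKM. Small RNA entries held 32.0% of the FPKM of knockout library 3 and at most 3.65% of the other 5 libraries. Relative depth, recovered from the steps between low FPKM values, ran from 0.637 to 1 over the 6 libraries, and the absolute depth is unknown. List medians below are also given without the marker-rich libraries where the median then turned its sign or moved by over 1.5 times. These were library 3 of both groups and of the 6-month knockout. Young wild-type library 3 was also rich in such markers, with 844 FPKM of blood and leukocyte and 3083 FPKM of luteal markers against at most 81.4 and 405 FPKM in its group, and it was not left out.

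The difference moved with transcript length. Genes with a transcript of 1500 to 2000 bases had a median log2 difference of 0.33, so they tended to be higher in the knockout, and 73.0% of the 1376 genes were above 0. Genes under 500 bases had a median of -0.31, and the 707 genes over 6000 bases had a median of -0.59, with 11.0% above 0 and 31.1% at an unadjusted p under 0.05. Without the marker-rich libraries these medians were 0.34, -0.15 and -0.72. A length was found for 9805 of the 10300 genes (95.2%). Medians centred on the 8 length classes, an alternative added after the data were seen, are given by the same rule. Malat1, a long nuclear RNA, read 278, 255 and 621 FPKM in the knockout and 731, 1039 and 6094 FPKM in the wild type, highest in wild-type library 3.

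**Figure D2:**
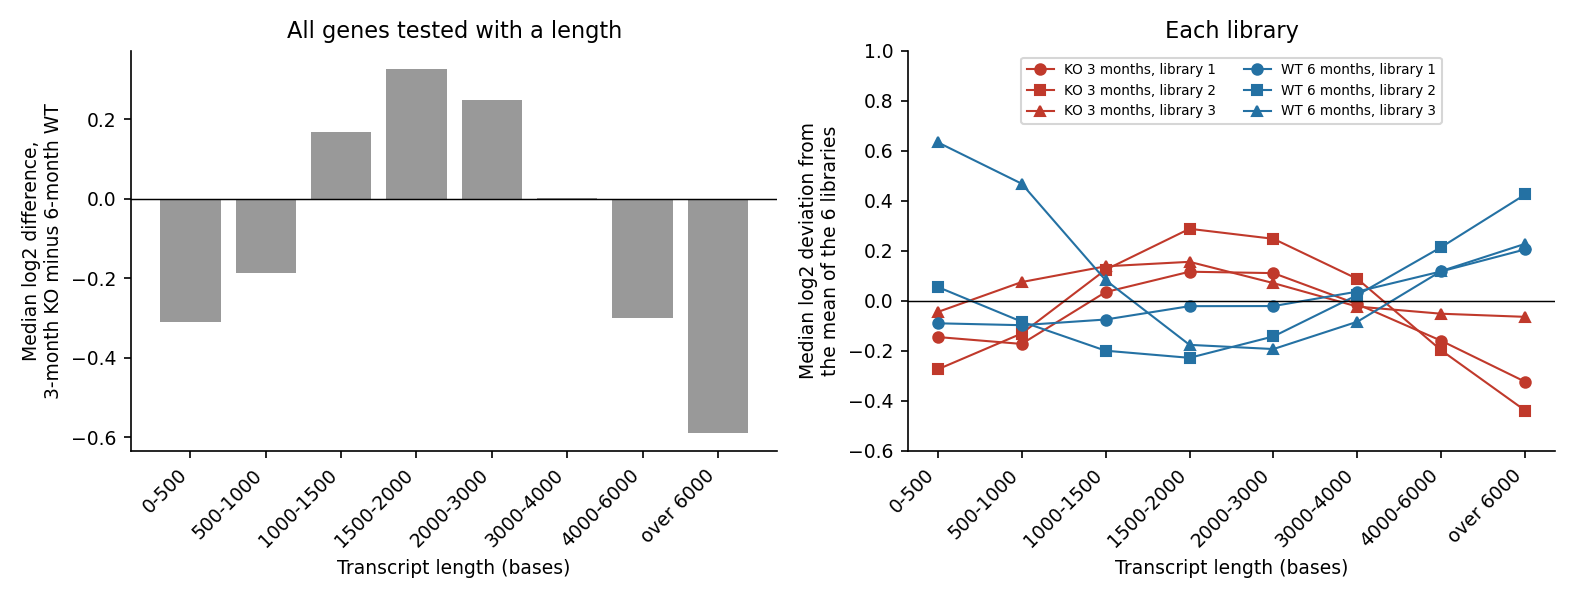
Median log2 difference (left, linear axis, bars from 0) and each library's median deviation from the mean of the 6 libraries (right, log2 units) in 8 classes of transcript length in bases. The knockout libraries lie above the wild-type libraries at 1500 to 3000 bases and below them over 6000 bases.

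The genes named on the higher side of the knockout included the mitochondrial enzyme Cpt2 and the mitochondrial chaperone Trap1, and none passed the threshold. Names were taken by smallest p among genes whose groups did not overlap, 10 in each direction, leaving out predicted symbols and small RNAs. The smallest p in this direction belonged to Cpt2 (chr4:107903981-107923610), the inner-membrane enzyme that frees fatty acids from carnitine for oxidation. Cpt2 read 29.9, 34.3 and 39.7 FPKM in the knockout against 15.2, 11.7 and 10.1 FPKM in the wild type, a log2 difference of 1.42 (95% interval 0.83 to 2.02) with a limma adjusted p of 0.355. All 3 knockout values lay well above all wild-type values, and 3-month WT read 17.1, 20.3 and 13.8 FPKM, between the groups for 2 of its 3 libraries. Trap1, the HSP90 of mitochondria, read 67.6, 88.0 and 78.3 FPKM against 42.1, 32.0 and 29.3 FPKM, a log2 difference of 1.16 (95% interval 0.59 to 1.73). Here young wild type read 71.8, 65.4 and 42.3 FPKM and reached the knockout range in library 1.

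Several of the other genes on this side act in the nucleus or in protein assembly. Smarcd2, a subunit of the SWI/SNF chromatin remodeller, read 17.9, 19.4 and 19.98 FPKM in the knockout and 8.58, 5.38 and 2.95 FPKM in the wild type, 1.69 (95% interval 0.89 to 2.49) on the log2 scale. Dyrk3, a kinase that dissolves stress granules, read 20.4, 25.02 and 9.74 FPKM against 8.08, 4.24 and 2.62 FPKM (1.71 (95% interval 0.82 to 2.59)). Cirh1a, a factor of small ribosomal subunit assembly, read 54.7, 98.6 and 74.0 FPKM against 40.4, 29.2 and 21.3 FPKM (1.30 (95% interval 0.60 to 2.00)). Tbce, a chaperone of tubulin, read 42.6, 39.4 and 37.2 FPKM against 20.4, 20.6 and 17.3 FPKM (1.00 (95% interval 0.45 to 1.54)). Lta4h, the hydrolase that makes leukotriene B4, read 60.3, 77.0 and 70.5 FPKM against 43.8, 23.6 and 24.6 FPKM. The libraries of each group lay close together for Tbce. Dynap, which encodes a dynactin-associated membrane protein, had the widest gap of the 10. Dynap read 23.7, 28.8 and 20.4 FPKM in the knockout against 1.61, 1.00 and 1.60 FPKM in the wild type, 3.39 (95% interval 1.51 to 5.27) on the log2 scale, and young wild type spanned 5.32, 0 and 16.3 FPKM. Mettl24, a predicted methyltransferase, read 4.01, 3.17 and 9.05 FPKM against 0.164, 0.323 and 0.881 FPKM, and Zbtb46, a zinc finger repressor, 2.70, 5.06 and 3.61 FPKM against 1.28, 0.602 and 0.689 FPKM. All 10 genes had a limma adjusted p of 0.355 and none is called.

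On the lower side, 8 named genes that did not pass are given, with limma adjusted p from 0.314 to 0.355. Grem1 (chr2:113746164-113758646), a secreted BMP antagonist that the oocyte induces in cumulus cells, had the largest difference of these 8. Grem1 read 2.23, 0.225 and 0.762 FPKM in the knockout against 52.0, 26.7 and 85.5 FPKM in the wild type, a log2 difference of -4.72 (95% interval -6.74 to -2.69). All 3 knockout libraries were far under the lowest wild-type library, while young wild type was spread over 13.3, 2.21 and 32.5 FPKM. Bmpr2, the type II receptor through which the oocyte's growth factors GDF9 and BMP15 signal, read 9.46, 5.43 and 6.56 FPKM against 22.9, 31.9 and 52.98 FPKM (-2.13 (95% interval -3.09 to -1.17)). Its young wild-type values, 17.2, 8.72 and 17.997 FPKM, lay below all older wild-type values and, in 2 of 3 libraries, above all knockout values. The Bmpr2 transcript, of 12899 bases, is in the longest class, and centred on length its difference was -1.54.

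Taf15, an RNA-binding protein, read 5.25, 2.02 and 3.65 FPKM in the knockout against 16.3, 19.3 and 28.0 FPKM in the wild type (-2.29 (95% interval -3.15 to -1.42)). Young wild type, at 6.58, 5.25 and 6.597 FPKM, lay close to the knockout. Jmjd1c, of the JmjC histone demethylase family, read 4.39, 3.25 and 3.71 FPKM against 11.5, 18.9 and 13.5 FPKM (-1.69 (95% interval -2.35 to -1.02)), and young wild type, at 13.8, 14.4 and 8.30 FPKM, lay closer to the older animals. Centred on length the difference of Jmjd1c, whose transcript of 8382 bases is in the longest class, was -1.10. H60b, a ligand of the receptor NKG2D, read 1.75, 3.58 and 3.07 FPKM against 9.63, 14.8 and 12.1 FPKM. Rian, a long noncoding RNA of the imprinted Dlk1-Dio3 region, read 1.33, 1.58 and 1.15 FPKM against 4.91, 14.5 and 6.32 FPKM. Meg3, its neighbour in that region and named after its values were seen, read 8.48, 4.10 and 5.92 FPKM against 15.6, 32.3 and 14.7 FPKM, again with no overlap (-1.57 (95% interval -2.33 to -0.80), limma adjusted p = 0.355). Histone H4 genes Hist1h4d and Hist1h4c were also among the 8. Hist1h4d read 472, 566 and 488 FPKM in the knockout against 1429, 1431 and 1788 FPKM in the wild type, and Hist1h4c read 5.32, 6.00 and 4.24 FPKM against 19.8, 21.9 and 27.4 FPKM. The H4 copies are close to identical, so the split of reads between them is uncertain.

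**Figure D3:**
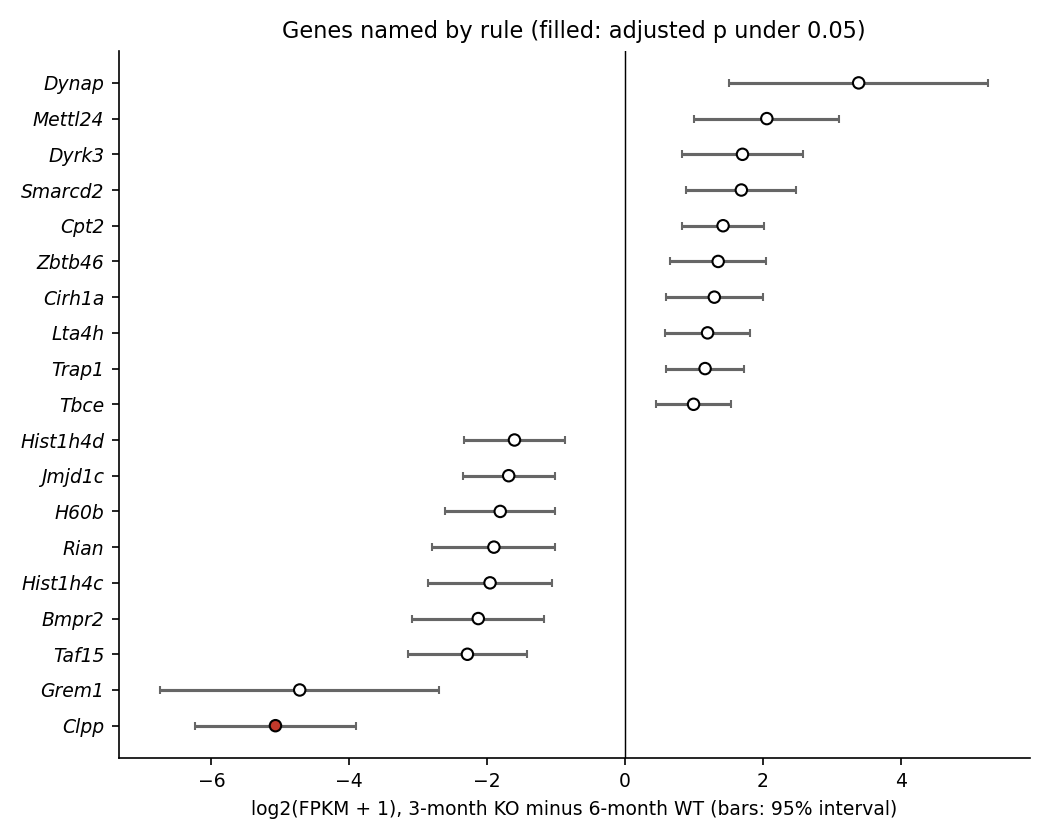
Log2 difference, 3-month knockout minus 6-month wild type, of Clpp and of the genes given above by name on either side, with 95% intervals from limma. Clpp, filled, is the gene of this set that passed; the estimates run from -5.07 for Clpp to 3.39 for Dynap.

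Small RNA entries were passed over in naming, and 22 were tested. Snora30, a small nucleolar RNA, was listed at 0 in all 3 knockout libraries and read 219, 194 and 42.0 FPKM in the older wild type (limma, adjusted p = 0.355). It was also listed at 0 in all young wild-type libraries and in 2 of the 3 older knockout libraries.

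Genes of the mitochondrial matrix mostly had higher levels in the young knockout, with no call besides Clpp. Members of each group are counted beside the 51.7% of all genes that were above 0. That share was 73.0% among genes of 1500 to 2000 bases and 68.5% among those of 2000 to 3000 bases. The median transcript lengths of the chaperone, tricarboxylic acid cycle and fatty acid oxidation lists, 2423, 2518 and 1893 bases, lie in these classes. Among mitochondrial chaperones 7 of 9 were above 0 and the median log2 difference was 0.55. Hspd1, the matrix chaperonin HSP60, read 499.8, 477 and 474 FPKM against 275, 220.5 and 309 FPKM (0.86 (95% interval 0.34 to 1.38)). Young wild type, at 219, 297 and 257 FPKM, overlapped the older wild type, and the knockout libraries stood above all 6. Dnaja3, the matrix J protein, read 16.03, 22.0 and 19.9 FPKM against 11.9, 8.51 and 8.30 FPKM (0.95 (95% interval 0.35 to 1.55)), with young wild type again low at 10.2, 8.73 and 11.5 FPKM. Hspa9, the matrix HSP70, read 129, 172 and 151 FPKM against 116, 91.6 and 67.8 FPKM, and young wild type spread over both, at 155, 132 and 87.9 FPKM. Dnajc19, of the inner-membrane import motor, went the other way without overlap, at 264, 245 and 204 FPKM against 266, 309 and 434 FPKM (-0.48 (95% interval -1.07 to 0.11)).

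The partners and relatives of ClpP showed the same tilt. Clpx, the unfoldase of the complex, read 34.9, 57.8 and 25.7 FPKM against 19.5, 18.4 and 22.0 FPKM (0.87 (95% interval 0.00 to 1.75), limma adjusted p = 0.429), and Lonp1, the other large matrix protease, 28.4, 34.6 and 39.9 FPKM against 25.3, 22.8 and 13.3 FPKM (0.75 (95% interval -0.10 to 1.61)). Of the 5 matrix proteases, 4 were above 0 and Clpp below, with a median of 0.75 that was 0.37 without the marker-rich libraries and 0.49 centred on length. Inner-membrane proteases and their scaffolds had 8 of 9 above 0 (median 0.37, and 0.14 when centred on length). Afg3l2, the m-AAA protease subunit, read 14.9, 16.5 and 10.2 FPKM against 8.51, 8.93 and 6.41 FPKM. Parl, a rhomboid protease, read 96.0, 111 and 108 FPKM against 64.2, 52.5 and 75.8 FPKM. For mitoribosome maturation 10 of 11 measured factors were above 0, with a median of 0.54 and of 0.88 without the marker-rich libraries. Eral1, the GTPase that ClpP is known to degrade, had 16.7, 22.1 and 12.2 FPKM against 9.29, 9.93 and 6.82 FPKM (0.87 (95% interval 0.17 to 1.58)). The young wild-type libraries, at 15.4, 9.77 and 9.77 FPKM, overlapped both groups.

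Enzymes of the tricarboxylic acid cycle were all above 0, 18 of 18, with a median of 0.59. Sucla2, a subunit of succinyl-CoA ligase, read 97.2, 119.8 and 114 FPKM in the knockout against 67.3, 52.7 and 86.8 FPKM in the wild type (0.69 (95% interval 0.16 to 1.22)). Centred on length class the median of the cycle was 0.33, and the difference of Sucla2 was 0.30. Fatty acid oxidation had 18 of 20 tested members above 0 (median 0.53, and 0.25 centred on length), and 7 of the 20 were higher without overlap, against 10.1% of all genes. Beside Cpt2, the acyl-CoA dehydrogenase Acadvl read 44.8, 54.0 and 48.0 FPKM against 24.1, 13.9 and 13.3 FPKM (1.51 (95% interval 0.62 to 2.40)), although young wild type reached 34.5, 70.9 and 19.3 FPKM. Acads, the short-chain enzyme, read 16.03, 15.3 and 18.8 FPKM against 9.63, 5.91 and 7.84 FPKM, and Hadh, a later step, 154, 159 and 173 FPKM against 119.7, 88.0 and 89.8 FPKM. When centred on length, the log2 difference of Acads went from 1.03 to 0.63 and that of Hadh from 0.71 to 0.32. Hadha, the alpha subunit of the trifunctional protein, was 1 of the 2 below 0, at 21.5, 19.2 and 31.6 FPKM against 21.6, 25.1 and 34.7 FPKM. Mitochondrial fatty acid synthesis and lipoylation had 7 of 7 tested members above 0 (median 0.68, and 0.45 centred on length). Lias, the lipoic acid synthase, read 49.9, 46.7 and 52.3 FPKM against 32.6, 31.1 and 26.1 FPKM (0.71 (95% interval 0.26 to 1.17)), and Mcat 20.3, 16.4 and 18.04 FPKM against 10.4, 10.1 and 4.83 FPKM (1.08 (95% interval 0.31 to 1.86)). When centred on length, Lias was at 0.45 and Mcat at 0.69. Young wild type read 43.3, 39.8 and 40.0 FPKM for Lias, between the groups, and 5.38, 2.52 and 6.30 FPKM for Mcat, in the low range.

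Subunits of the respiratory chain divided. Of 76 measured, 61 were below 0 and 15 above, with a median of -0.31 (-0.14 without the marker-rich libraries), and 22 were lower without overlap against 5 higher. Over all genes the shares were 9.9% and 10.1%. Complex I held 33 of 37 below 0. Its small subunit Ndufa3 read 1085, 1113 and 1491 FPKM against 1645, 1885 and 3067 FPKM (-0.80 (95% interval -1.53 to -0.07)). Uqcr11, a small subunit of complex III, read 935, 999.7 and 1481 FPKM against 1699, 1913 and 2315 FPKM (-0.81 (95% interval -1.53 to -0.10)). The 5 subunits that were higher without overlap were Ndufv1, Ndufs1, Uqcrc1, Uqcrc2 and Uqcrfs1. Ndufv1, which binds NADH, read 188, 182 and 127 FPKM against 109, 69.5 and 54.5 FPKM (1.12 (95% interval 0.49 to 1.75)). Ndufs1, the largest subunit of complex I, read 80.3, 97.4 and 56.2 FPKM against 41.1, 37.7 and 43.9 FPKM. The core proteins of complex III followed, with Uqcrc1 at 320.3, 426 and 298 FPKM against 268, 179 and 129 FPKM and Uqcrc2 at 195, 218 and 201 FPKM against 149, 129 and 116 FPKM. Transcripts of Ndufv1, Uqcrc1, Uqcrc2 and Ndufs1 have 1528, 1653, 1896 and 2626 bases, in classes where most genes were above 0. Centred on length, their log2 differences went from 1.12, 0.90, 0.64 and 0.88 to 0.73, 0.51, 0.25 and 0.61. None of the 76 passed the threshold. Median transcript length in this list was 746.5 bases, in the class of 500 to 1000 bases whose median over all genes was -0.19. After length centring the median of the chain was -0.24. Cytosolic ribosomal proteins, also short, had 43 of 54 below 0 with a median of -0.15 (-0.08 without the marker-rich libraries), and mitochondrial ribosomal proteins 32 of 55 above 0 with 0.13 (-0.01 centred on length). Mitochondrial DNA upkeep (median 0.25) and fusion and fission (0.28) had 7 of 13 and 7 of 10 tested members above 0. Centred on length these medians were 0.07 and 0.13, and that of DNA upkeep was 0.03 without the marker-rich libraries.

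The integrated stress response (ISR) raises the factors ATF4 and CHOP, which turn on genes of amino acid supply, one-carbon metabolism and tRNA charging. These targets were higher in the young knockout than in the older wild type for 21 of 24 tested genes, with a median of 0.94, and none was called. Without the marker-rich libraries the median was 0.67, and centred on length it was 0.72. Sars, the seryl-tRNA synthetase, read 37.2, 40.8 and 29.8 FPKM against 21.3, 16.03 and 14.1 FPKM (1.03 (95% interval 0.42 to 1.65)). Asns, the asparagine synthetase, read 51.1, 75.8 and 77.5 FPKM against 33.9, 19.2 and 12.9 FPKM (1.67 (95% interval 0.32 to 3.01)), and young wild type covered 210.0, 110.3 and 34.3 FPKM. Gars, for glycine, read 73.2, 120.3 and 89.4 FPKM against 60.9, 44.2 and 25.4 FPKM, and Slc3a2, a shared chain of amino acid transporters, 103, 173 and 158 FPKM against 83.3, 73.2 and 60.6 FPKM. Phgdh, the first enzyme of serine synthesis, overlapped at 41.3, 98.1 and 87.3 FPKM against 54.6, 30.8 and 13.5 FPKM (1.28 (95% interval 0.28 to 2.29)). Wild-type library 3 was the lowest of the 6 libraries for 20 of the 24 genes. The 3 targets below 0 were Slc7a1, Eprs and Eif4ebp1.

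The knockout and the older wild type were each also set beside young wild type. The median of the 24 targets was -0.04 for the knockout minus young wild type and -0.85 for older minus young wild type. Both use the same 3 young wild-type libraries, of which library 1 was the highest for 19 of the 24 targets, so they are given side by side only.

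**Figure D4:**
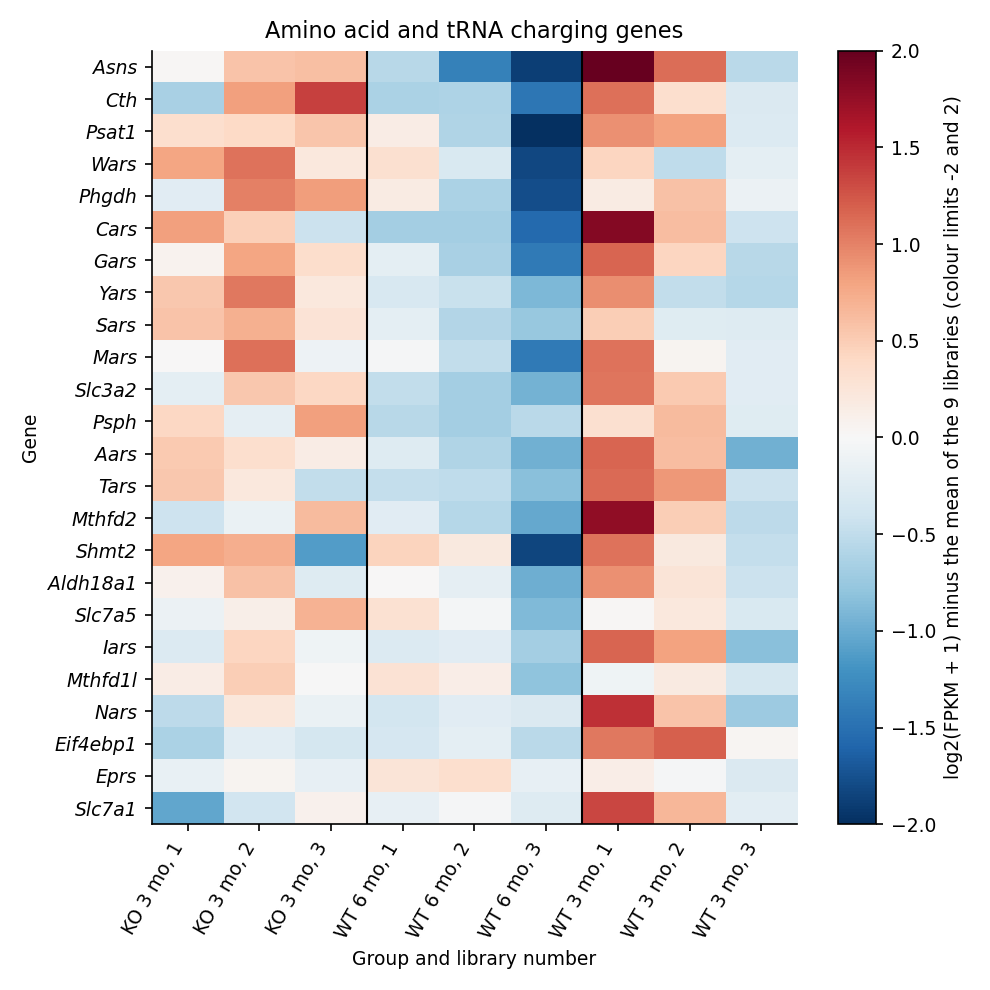
Log2(FPKM + 1) of the 24 tested amino acid, one-carbon and tRNA charging genes of the integrated stress response, minus each gene's mean over the 9 libraries shown, with rows ordered by the difference between knockout and older wild type. Older wild-type library 3 has the deepest blue column and young wild-type library 1 the deepest red. The knockout libraries lie wholly above the older wild-type libraries for 9 of the 24 genes (37.5%, against 10.1% of all genes tested) and overlap them for the rest.

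The rest of the list of this response, its regulators with a few further genes such as Vldlr, was not on 1 side. Of 10 tested, 4 were above 0 and the median was -0.33, which was -0.70 without the marker-rich libraries and -0.55 centred on length. Atf4 itself read 199, 278 and 211 FPKM against 205, 229 and 133 FPKM, which overlapped (0.30 (95% interval -0.62 to 1.22)). Nupr1, a small stress-induced chromatin protein, had the lowest p of the response and was lower in the knockout. Nupr1 read 113, 202 and 190.4 FPKM in the knockout against 933, 1325 and 678 FPKM in the wild type (-2.52 (95% interval -4.02 to -1.03), limma adjusted p = 0.355). The 3 groups were stepped, since young wild type read 3637, 2656 and 1204 FPKM and only its library 3 reached the range of the older wild type. Ddit3, which encodes CHOP, read 15.7, 59.2 and 143 FPKM against 65.3, 117 and 167 FPKM and overlapped. Cebpb, a partner factor, was higher at 153, 151 and 139 FPKM against 114, 75.3 and 32.1 FPKM (1.17 (95% interval 0.23 to 2.11)).

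The promoters of these genes are printed where they hold the CHOP-ATF composite element, because Nupr1 and several targets hold that element and lay on opposite sides of 0. The element was searched as TGATGCAA and, on the opposite strand, TTGCATCA in RefSeq windows of 300 bases (GRCm38.p6, 250 before to 50 after each start), a search chosen after the values were seen. It was found in 10 of 33 promoters of the response (30.3%), against 1.03% of 27025 promoters and 0.678% of the 7812 promoters of genes tested. Below are 40 bases around it for the 6 genes that were tested, on the gene's strand, 5′ to 3′, with the element in capitals.
Nupr1: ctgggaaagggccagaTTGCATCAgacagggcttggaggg
Vldlr: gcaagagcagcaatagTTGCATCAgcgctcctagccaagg
Aars: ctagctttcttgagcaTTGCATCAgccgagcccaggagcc
Iars: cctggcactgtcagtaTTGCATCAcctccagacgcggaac
Tars: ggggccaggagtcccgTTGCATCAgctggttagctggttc
Yars: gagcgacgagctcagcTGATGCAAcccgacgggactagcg
These windows lie at chr7:126625557-126625596 for Nupr1, chr19:27216804-27216843 for Vldlr, chr8:111033714-111033753 for Aars, chr13:49682121-49682160 for Iars, chr15:11399650-11399689 for Tars and chr4:129189890-129189929 for Yars. Nupr1 and Tars are on the minus strand and the others on the plus strand. The element begins at position -110 from the start of Nupr1, -200 of Vldlr, -112 of Aars and -15 of Tars, and 7 and 3 bases after that of Iars and Yars. Log2 differences of these 6 genes were -2.52 for Nupr1, -0.82 for Vldlr, 0.94 for Aars, 0.41 for Iars, 0.70 for Tars and 1.15 for Yars. The synthetase genes among them were above 0 and the other 2 below. Pycr1, Chac1, Fgf21 and Slc7a11 also hold the element and were too low to be tested. An AP-1 site (TGACTCA or TGAGTCA) was in 2 of the 33 promoters (6.06%, against 5.95% of all promoters), and a cyclic AMP response element (TGACGTCA) in 1 (3.03%, against 2.03%). Among promoters of genes tested the shares were 4.01% for the AP-1 site and 3.87% for the cyclic AMP response element. A match is a description of the letters and not of binding. The list was drawn up as genes of the ATF4 and CHOP response, so its excess of the CHOP-ATF element is a trait of the list. It is no result of these libraries.

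Genes of cumulus expansion read low in both groups, and none was called. Of 22 listed, 7 passed the filter on low values, and all 7 were below 0 (median -0.88, and -0.43 without the marker-rich libraries). Tnfaip6, which links hyaluronan in the expanding matrix, read 1.41, 0 and 1.66 FPKM in the knockout, 2.91, 1.91 and 7.24 FPKM in the older wild type and 45.9, 44.9 and 8.36 FPKM in young wild type (-1.29 (95% interval -2.76 to 0.18)). Vcan, the versican proteoglycan, read 12.7, 2.58 and 15.4 FPKM against 24.3, 19.1 and 21.2 FPKM (-1.27 (95% interval -2.52 to -0.02)). Has2, the hyaluronan synthase, did not pass the filter, with 0, 0 and 0.0157 FPKM against 0.486, 0.312 and 0.825 FPKM, and read 23.1, 2.06 and 2.08 FPKM in young wild type. Ptgs2, the prostaglandin synthase, read 0.152, 0.0325 and 0.580 FPKM against 0.0135, 0.147 and 5.23 FPKM, and 37.6, 9.06 and 0.0847 FPKM in young wild type. For Tnfaip6, Has2 and Ptgs2, all 6 libraries compared here lay below 2 of the 3 young wild-type libraries. Ptgs2, like Has2, was not tested, and these 3 genes do not stand for the list. Its 7 tested members had a median of -0.57 for knockout minus young wild type and of 0.05 for older minus young wild type. Both medians use the same young wild-type libraries.

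The oocyte support list, which holds receptors among other genes, was mixed, with 6 of 17 tested members above 0 and a median of -0.33. Besides Bmpr2, the receptor Tgfbr1 read 2.80, 2.16 and 6.61 FPKM against 6.32, 8.46 and 15.4 FPKM (-1.21 (95% interval -2.09 to -0.33)) and Bmpr1b 9.62, 12.3 and 7.66 FPKM against 17.7, 25.6 and 24.0 FPKM (-1.12 (95% interval -2.20 to -0.03)). Amhr2, the receptor for anti-Müllerian hormone, was on the higher side at 63.4, 149 and 82.0 FPKM against 63.8, 29.2 and 15.3 FPKM (1.55 (95% interval 0.46 to 2.63)), with knockout library 1 just under the highest wild-type library. Of the inhibin and activin genes 1 of 6 was above 0 (median -0.88). Inhbb, a beta subunit, read 149.97, 48.2 and 2.77 FPKM against 116, 166 and 219 FPKM (-2.42 (95% interval -4.80 to -0.05)), and Inhba 619, 125 and 11.0 FPKM against 488, 481 and 912 FPKM. Knockout library 3, high in other-cell markers, was the lowest for both, and without it the log2 differences were -0.92 for Inhbb and -1.10 for Inhba. Inha, the alpha subunit, overlapped at 4226, 6334 and 2590.2 FPKM against 3711, 2715 and 2419 FPKM.

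Steroid synthesis and luteal genes varied widely between the libraries of a group. Cyp11a1, the side-chain cleavage enzyme that begins steroid synthesis, read 724, 2.46 and 5942 FPKM against 63.3, 24.3 and 695 FPKM (1.24 (95% interval -4.75 to 7.23)). It was highest in library 3 of both groups, where theca markers were highest too. Luteal markers were also highest there, but Cyp11a1 is itself in that list and is counted in its sum. The part of other cells in the Cyp11a1 level was not tested. Fdxr, which feeds electrons to that enzyme, read 42.2, 43.7 and 84.8 FPKM against 22.7, 19.3 and 30.4 FPKM (1.15 (95% interval 0.09 to 2.21)). Steroid synthesis had 7 of 12 above 0 (median 0.41, and 0.14 centred on length), the luteal markers 2 of 8 (median -0.84) and theca and stromal markers 7 of 8 (median 0.80, which turned to -0.22 without the marker-rich libraries and was 0.47 centred on length). Surface epithelium markers had 2 of 8 above 0 and a median of -1.48. Upk1b, a uroplakin of that layer, read 0, 0 and 1.27 FPKM against 17.6, 0 and 18.8 FPKM and was called lower (limma, adjusted p = 0.00415, range 0.00415 to 0.808 over the alternatives) when wild-type library 2, its low library, was left out. Krt8, a keratin, was higher in the knockout at 39.0, 62.4 and 76.6 FPKM against 27.6, 16.6 and 8.35 FPKM (1.80 (95% interval 0.28 to 3.31)). The blood and leukocyte list had a median of -0.57 over 13 tested members, the endothelial list 0.50 over 3 and the oocyte list 0.67 over 4. The last 2 were 0.11 and 0.34 centred on length, and the oocyte list was 0.39 without the marker-rich libraries. Granulosa and cumulus markers were balanced, 7 above and 7 below 0, with a median of -0.18 that became 0.42 without those libraries and -0.33 centred on length.

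Stress lists outside mitochondria held no call. Endoplasmic reticulum stress had 12 of 27 members above 0, with a median of -0.15 that became 0.47 without the marker-rich libraries. Of its sensors, Atf6 read 2.82, 1.60 and 2.69 FPKM against 4.31, 6.67 and 6.09 FPKM (-0.99 (95% interval -1.80 to -0.19), and -0.41 centred on length) and Eif2ak3, the kinase PERK, 1.23, 1.63 and 0.266 FPKM against 2.23, 3.38 and 2.11 FPKM. Neither passed, and the Atf6 transcript, of 7246 bases, is in the longest class. Immediate early genes were even, 16 of 30 above 0 (median 0.06, and -0.30 without those libraries and -0.13 centred on length). Fosb, an AP-1 subunit, read 17.3, 59.8 and 59.96 FPKM against 125, 187 and 73.6 FPKM (-1.56 (95% interval -2.80 to -0.33)), while Fos overlapped at 650.2, 2598 and 508 FPKM against 1182, 914 and 709 FPKM. In the antioxidant list, 18 of 26 were above 0 (median 0.33, 0.22 without those libraries and 0.14 centred on length). Gsr, which reduces glutathione, read 53.1, 55.1 and 43.0 FPKM against 33.4, 21.0 and 18.3 FPKM (1.07 (95% interval 0.44 to 1.69)), and Cat, the catalase, 51.7, 63.7 and 55.9 FPKM against 34.8, 23.5 and 31.9 FPKM (0.92 (95% interval 0.28 to 1.55)). When centred on length, Gsr was at 0.80 and Cat at 0.52. Gpx4, a selenoenzyme against lipid peroxides, was lower at 914, 1091 and 961 FPKM against 1145, 1464 and 1695 FPKM (-0.52 (95% interval -0.97 to -0.08)). Among p53 targets and apoptosis genes 11 of 20 were above 0 (median 0.12, and -0.07 centred on length). Trp53 read 70.9, 118 and 73.7 FPKM against 59.1, 51.1 and 28.0 FPKM (0.94 (95% interval 0.25 to 1.63)) and Bid, a BH3 protein, 11.7, 24.98 and 16.5 FPKM against 7.15, 4.10 and 6.68 FPKM (1.39 (95% interval 0.51 to 2.27)). Cdkn1a, the p21 cell cycle inhibitor, lay on the other side at 0.666, 6.67 and 7.97 FPKM against 16.02, 17.2 and 12.9 FPKM, and 2 young wild-type libraries were higher than either, 70.4, 91.2 and 6.34 FPKM. Cdkn1b, which encodes p27, was also lower, 1.33, 1.26 and 2.21 FPKM against 2.63, 4.50 and 8.61 FPKM (-1.17 (95% interval -1.98 to -0.36)), and Mki67, a mark of dividing cells, read 15.6, 13.2 and 9.83 FPKM against 35.7, 37.9 and 19.2 FPKM (-1.17 (95% interval -2.69 to 0.36)). The Mki67 transcript, of 10061 bases, is in the longest class, and centred on length its difference was -0.58.

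The remaining lists had medians between -0.07 and 0.23. Cytosolic heat shock (median 0.20 over 15 members, 0.58 without the marker-rich libraries), interferon response (0.23 over 16), cell cycle (0.15 over 31), autophagy and mitophagy (0.08 over 22), mTOR signalling (0.01 over 18), cholesterol synthesis (-0.04 over 24) and glycolysis (-0.07 over 21) held no call. Without the marker-rich libraries the medians were -0.16 for interferon response, 0.47 for cell cycle, 0.13 for autophagy, 0.10 for cholesterol synthesis and 0.38 for glycolysis. Centred on length they were -0.02 for cell cycle, -0.03 for autophagy, 0.18 for mTOR signalling and -0.23 for cholesterol synthesis. The proteasome and ubiquitin list had a median of 0.09 over 32, 0.36 without the marker-rich libraries and -0.06 centred on length. Ldhb, of lactate dehydrogenase, stood out within glycolysis at 465, 794 and 1978 FPKM against 458, 262 and 312 FPKM (1.43 (95% interval 0.15 to 2.70)), highest in knockout library 3. Pink1, the kinase that marks damaged mitochondria, read 11.3, 41.3 and 19.7 FPKM against 13.6, 10.4 and 3.73 FPKM (1.25 (95% interval 0.10 to 2.41)). Genes beside Clpp on chromosome 17 had 5 of 7 tested members above 0 (median 0.15, and 0.09 centred on length). Gpr108 among them read 17.4, 16.3 and 13.4 FPKM against 10.7, 10.4 and 9.78 FPKM, and none was called.

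**Figure D5:**
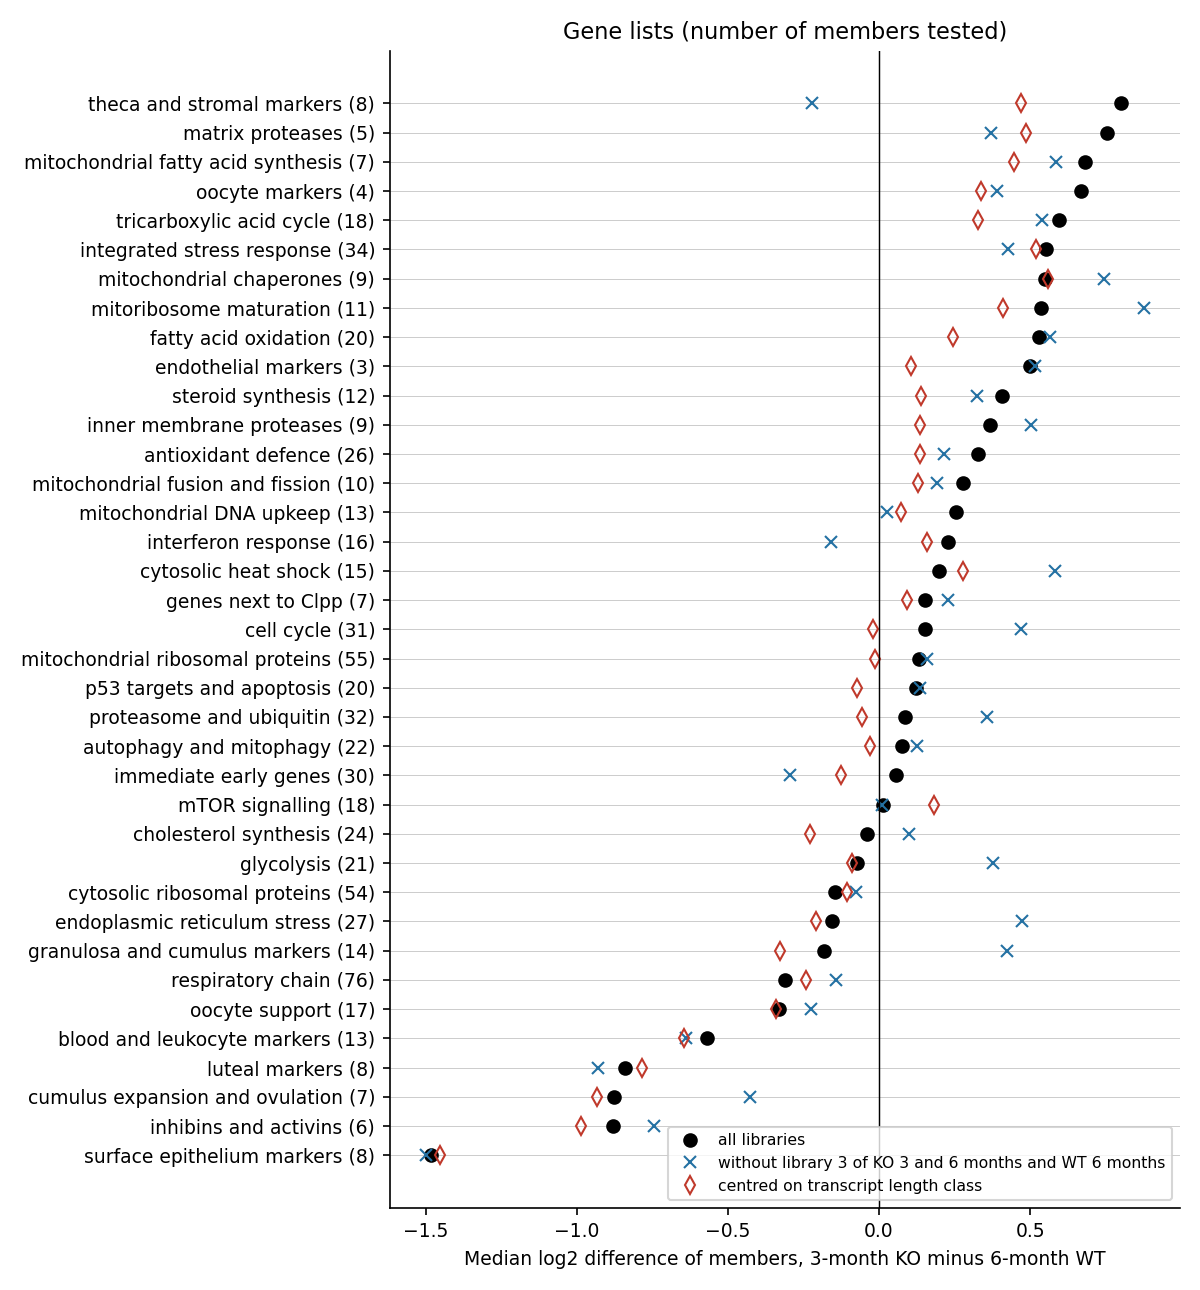
Median log2 difference (3-month knockout minus 6-month wild type) of the tested members of each of the 37 lists, with the number tested in brackets, for all libraries, without the marker-rich libraries, and centred on transcript length class. Surface epithelium markers are lowest at -1.48 and theca and stromal markers highest at 0.80, and the latter fall below 0 without those libraries.

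Genes that both groups shared against young wild type were listed separately, since these bear on whether early loss of ClpP and later age give like levels. They were ranked by the smaller of the 2 distances from young wild type among genes with no overlap, so their departure from it was the rule and carries no test. The direct difference and its interval say how near the knockout and the older wild type were. Tex14, of intercellular bridges, read 7.05, 8.61 and 8.32 FPKM in the knockout, 7.57, 7.29 and 7.48 FPKM in the older wild type and 1.79, 2.24 and 3.12 FPKM in young wild type. Its direct log2 difference was 0.09 (95% interval -0.64 to 0.81), the narrowest interval of the 12 genes listed. Dhrs3, a retinal reductase, read 20.2, 14.9 and 24.1 FPKM, 14.1, 18.5 and 16.05 FPKM and 0.700, 3.17 and 9.73 FPKM in the same order, with a difference of 0.25 (95% interval -1.45 to 1.96). Cdkn2c, a cell cycle inhibitor, read 9.67, 9.07 and 22.6 FPKM, 8.80, 9.75 and 18.2 FPKM and 1.374, 1.40 and 8.08 FPKM (0.11 (95% interval -1.34 to 1.55)). Library 3 was highest in all 3 groups for Cdkn2c. Jun, an AP-1 subunit, read 182, 249 and 81.4 FPKM, 168, 114 and 92.4 FPKM and 61.1, 25.1 and 76.2 FPKM (0.35 (95% interval -0.80 to 1.504)). Rbl2, a pocket protein, differed by 0.15 (95% interval -0.72 to 1.02) and Zfp239, a zinc finger protein, by -0.22 (95% interval -0.99 to 0.55).

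On the low side both groups were under young wild type in Tnfaip6, given above, and in 5 other genes. Osgin2 read 16.6, 16.8 and 12.3 FPKM in the knockout, 17.03, 11.5 and 12.6 FPKM in the older wild type and 140.0, 192 and 26.8 FPKM in young wild type, a direct difference of 0.15 (95% interval -1.08 to 1.38). Rgcc, a cell cycle regulator that responds to complement, read 250.005, 579 and 356 FPKM, 525, 545 and 538 FPKM and 2169, 4220.4 and 619 FPKM (-0.52 (95% interval -1.86 to 0.81)). Fam110c read 5.21, 3.86 and 3.98 FPKM, 3.10, 2.51 and 2.52 FPKM and 90.9, 29.4 and 6.47 FPKM (0.52 (95% interval -1.03 to 2.08)), with the knockout wholly above the older wild type. Zfp948 differed by -0.07 (95% interval -1.09 to 0.95) and Rnf125, a ubiquitin ligase, by 0.15 (95% interval -0.93 to 1.22). In Osgin2, Rgcc, Fam110c, Zfp948 and Tnfaip6, the young wild-type libraries 1 and 2 were far above library 3, which lay nearer the other groups and was the library of that group rich in other-cell markers. The part of other cells in this was not tested. Most of the 12 intervals reach past -1 or 1, so a 2-fold difference in FPKM + 1 between knockout and older wild type stayed within them. The exceptions, with both ends inside, were Tex14 and Zfp239.

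Across the 10300 genes, the knockout libraries were, by the medians over all pairs, about as near to older as to young wild type. Pearson's r of log2(FPKM + 1) between libraries ran from 0.867 to 0.950 over the 9 pairs of knockout with older wild type (median 0.906), and from 0.869 to 0.944 over the 9 pairs with young wild type (median 0.919). Pairs within the knockout had 0.878 to 0.934, inside the range of its pairs with the older wild type. Pairs within the older wild type had 0.923 to 0.977, and pairs of young with older wild type 0.889 to 0.965 (median 0.936). The root mean square log2 difference had medians of 0.945 for knockout with older wild type, 0.932 for knockout with young wild type and 0.805 for young with older wild type. Those medians include library 3 of each group, which was rich in other-cell markers. Among libraries 1 and 2 alone the knockout tended nearer to older wild type, with ranges that overlapped. Its r was 0.927 to 0.950 with older and 0.908 to 0.930 with young wild type. The root mean square difference was 0.740 to 0.872 with older and 0.870 to 1.04 with young wild type. The genes were kept on the 6 libraries compared, so genes on mainly in young wild type, such as Has2 and Ptgs2, do not count here. All of these values are descriptions across genes, which are not independent replicates, and pairs share libraries.

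A pair of settings bears on the counts above. With libraries weighted by their estimated quality (limma array weights, which ran from 0.224 to 10.1, highest for wild-type library 2), limma called 103 genes higher and 235 lower at an adjusted p under 0.05. Fitted on the 6 libraries alone it called 1 higher, Dynap, and 4 lower, among them Clpp, Grem1 and Snora30.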

How the data were processed

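Gene levels were deposited as FPKM in 1 table. Per the submitters' processing notes, the authors used Bowtie2 2.1.0, FastQC, Cufflinks 1.2.1, cutadapt, SAMtools 0.1.18 and TopHat2 2.0.10, with GRCm38 (mm10). These notes and the labels name no gene annotation for the FPKM. Reads were paired-end, 75 bases, per the labels' protocols. Columns were matched to samples by title, and 0 of the 66 pairs of libraries were identical.

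Genes with at least 1 FPKM in at least 3 of the 6 libraries compared were kept, 10300 in all. Values were taken as log2(FPKM + 1) and all 12 libraries were fitted as 4 group means with limma 3.58.1 (R 4.3.3, lmFit and eBayes with trend, 8 residual degrees of freedom). Fold changes are on this scale. P-values were 2-sided with Benjamini-Hochberg adjustment, threshold 0.05, and measure the spread between these mice. The members and the 37 gene lists were chosen with earlier results of these data known. Named genes were Clpp, then 10 per direction by size among called genes or else by p among genes whose groups did not overlap, up to 4 per list by p, and up to 6 per direction in which both groups lay beyond young wild type. A gene named by a larger part of a list than this rule takes was chosen after its values were seen. Predicted, clone-named and date-turned symbols were passed over, and a few genes that the rule names, 1 of the 2 called genes among them, are not reported here.

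Tested on simulated data of this comparison (9957 genes), the fit recovered 71 of 100 genes changed by 2 on the log2 scale and 97 of 100 changed by 4, with 10 false calls. The changed genes were drawn only from those above a set mean level, and noise was drawn independently for each gene and library. Shifts that many genes of a library share, as with transcript length or other-cell markers, were not simulated. These shares therefore need not hold for the data. Transcript lengths and coordinates came from GENCODE M21 and promoters from RefSeq (GRCm38.p6). The serum response element was not searched. Replicate numbers were not taken as pairs. Alternatives were other pseudocounts, filters, scalings, weights and fits, and leaving out libraries.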

Additional observations from a re-analysis of the deposited data

How the results depend on the processing

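Clpp kept its direction and its call under all 18 alternatives (log2 difference -5.60 to -4.00, limma adjusted p 7.6e-05 to 0.0355). The counts of calls, 0 higher and 2 lower, were 1 and 4 with the 6 libraries alone, and 103 and 235 with array weights. Leaving out 1 library at a time gave 0 higher and 2 to 3 lower, the third being Upk1b without wild-type library 2. Genes at an unadjusted p under 0.05 numbered 1199, but 2683 with array weights, 799 after centring on length class (chosen after seeing the data), and 678 to 1507 with 1 library left out, lowest without wild-type library 2 and 739 without wild-type library 3. Genes whose groups did not overlap numbered 2061, but 2306 to 4128 with 1 library left out and 5591 with the 3 marker-rich libraries left out, where fewer libraries make overlap rarer.

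The labels do not say that a replicate number marks a shared animal, and deviations of same-numbered libraries correlated at 0.01, 0.39 and 0.41, so the numbers were not read as pairs, and not every library correlated best with its own number. With the replicate number as a block there were 0 higher and 2 lower calls and 1496 genes at an unadjusted p under 0.05. The block on the 6 libraries alone gave 1 and 5 calls.

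Of the 160 tested genes that the rule names, 9 turned sign under some alternative, none of them called. With the 3 marker-rich libraries (library 3 of both groups and of the 6-month knockout) left out, the log2 differences were -0.19 for Cyp17a1 and -0.49 for Esam. With 1 library left out, the reversing genes ranged over -0.56 to 4.24 (Cyp17a1), -0.52 to 1.53 (Emcn), -0.79 to 0.79 (Esam), -0.22 to 0.87 (Zp3), -0.32 to 0.77 (Ooep), -2.21 to 0.18 (Ptgfr) and -3.19 to 0.0115 (Lhcgr). Esam was at -0.48 with a pseudocount of 0.1, -0.0229 with median centring and -0.35 centred on length class, where Pgam1 was at -0.0184 and Tsc1 at 0.0721. The cause was not tested. Named genes that turned sign or moved by over 1.5 times numbered 68 of 159 when centred on length class and 37 of 160 with the 3 marker-rich libraries left out. Under some alternative, mostly array weights, 39 of the 160 were called. Other scalings moved the median of all genes by less than 0.1. FPKM hold no counts, so the depth behind a low value is unknown.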

Other observations

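A few more noncoding RNAs had lower levels in the young knockout than in the older wild type, with no call. Rn45s, the precursor of ribosomal RNA, read 262, 168 and 788 FPKM in the knockout against 1172, 1622 and 1547 FPKM in the older wild type, with no overlap (log2 difference -2.13 (95% interval -3.34 to -0.92), limma adjusted p = 0.355). Young wild type read 264, 934 and 328 FPKM and overlapped the knockout. The small nucleolar RNAs Snora78 and Snora81 read 0, 25.3 and 13.6 FPKM against 63.7, 63.7 and 63.4 FPKM and 6.45, 5.37 and 0 FPKM against 35.3, 53.2 and 29.5 FPKM, both without overlap and both with a limma adjusted p of 0.355. These 3 genes were singled out after their values were seen. They are short or repeated transcripts, for which FPKM from 100 cells rest on an unknown number of reads.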
